A study of Homo sapiens with 183 samples.

Results

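The transcription factor MYC and the proteins that share its DNA-binding partner MAX were followed at the mRNA level through every knockout and drug treatment of this series. The 10 genes were taken by name, as the MYC family (MYC, MYCN and MYCL), the common partner MAX, the repressive partners of MAX (MXD1, MXD3, MXD4, MXI1 and MNT), and MLX, the MAX-like partner of a parallel branch of the network. All 10 were found among the 19875 gene names of the expression tables. The series holds 183 bulk RNA-seq libraries in 59 groups from 9 human cancer cell lines, of which 56 were controls and 127 were treated. It follows KLF5, a transcription factor of pancreatic epithelium, and the AAA+ ATPases RUVBL1 and RUVBL2, which work in chromatin remodelling and chaperone complexes.

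In the knockout experiments, Cas9-expressing pancreatic cancer lines carried guide RNAs, and RNA was taken on day 5. The guides were directed at KLF5 (sgKLF5), RUVBL1 (sgRUVBL1), RUVBL2 (sgRUVBL2), CDK1 (sgCDK1), RPA3 (sgRPA3), CHD4 (sgCHD4) or SERPINB5 (sgSERPINB5), and the control guide sgRosa was directed at the ROSA26 locus. CDK1, which drives entry into mitosis, and RPA3, a replication protein, are required by dividing cells in general. The pancreatic lines were AsPC-1 and SUIT-2, described by the study as classical, T3M-4 and BxPC-3, described as basal-like, and CFPAC-1. KLF5 was knocked out in all 5, in 2 separate experiments in T3M-4, BxPC-3 and AsPC-1, numbered here as in the sample labels (experiments 1 and 3 in AsPC-1, 1 and 2 in the other lines). RUVBL1 was knocked out in AsPC-1 (experiments 2 and 3), T3M-4, BxPC-3 and CFPAC-1, and RUVBL2 in the same lines (AsPC-1 experiment 3 only). CHD4 in AsPC-1 had its own sgRosa libraries.

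In the drug experiments, cells received CB-6644, an allosteric inhibitor of the RUVBL1 and RUVBL2 ATPase activity, or the solvent DMSO for 24 h. AsPC-1 and T3M-4 carried 1 of 3 lentiviral constructs, an empty vector (EV), RUVBL1 A62T or RUVBL2 dF109, the last 2 being variants that the study describes as resistant to the drug. Each construct had 3 CB-6644 libraries and 1 DMSO library, so the 3 DMSO libraries of a line were used together as its control. The T84 colorectal, A-375 melanoma, H1048 small cell lung and RH30 rhabdomyosarcoma lines carried no construct and had 4 DMSO and 4 CB-6644 libraries each. The study describes 2 guides each for KLF5, RUVBL1, RUVBL2 and ROSA26, and lists 1 each for CDK1 and RPA3. Labels do not say which guide a library carried, nor that replicates were separate cultures, so p-values measure the spread between these libraries. In bulk RNA, fewer cells expressing a gene and less RNA per cell cannot be told apart.

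MYC, MYCN and MYCL bind E-box DNA (CACGTG) as dimers with MAX and activate genes of ribosome production, nucleotide synthesis and the cell cycle. MXD1, MXD3, MXD4, MXI1 and MNT compete for MAX, bind the same sites and recruit corepressors. The MXD proteins tend to rise as cells leave the cycle or differentiate, except MXD3, which is expressed in S phase. MLX pairs with MLXIP and MLXIPL, the glucose-sensing Mondo factors, and also with MXD1, MXD4 and MNT. RUVBL1 and RUVBL2 bind MYC directly and sit in the TIP60-EP400 complex, one of its coactivators.

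The E-box is the DNA site through which the network acts, and 3 of its own genes carried one in their RefSeq promoter (GRCh38.p14). Promoter windows were found for 9 of the 10 genes, 12 windows in all, and the 250 bases before each start were searched on both strands. CACGTG was present in 3 of the 12 windows and in 6.34% of all 35116 windows. The CACC sequence bound by KLF factors, searched as CCACCC or GGGTGG, was present in 5 of the 12 and in 31.3% of all. The 30-base stretches that hold the E-box are shown 5′ to 3′ on the strand of the gene, with CACGTG in capitals.
MXD4, chr4:2262330-2262359, minus strand: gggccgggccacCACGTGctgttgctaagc
MNT, chr17:2401236-2401265, minus strand: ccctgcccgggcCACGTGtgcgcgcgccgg
MLX, chr17:42567038-42567067, plus strand: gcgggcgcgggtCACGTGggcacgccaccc
The E-box began 238 bases before the start of MXD4, 193 before that of MNT and 50 before that of MLX. MXD4, the member that rose most often in KLF5 knockouts, also had 1 CACC sequence. So had MLX (1) and windows of MXD1 (2), MXI1 (3) and MAX (3). In 8 KLF5 comparisons each, MXD1 was lower in 1, MXI1 called in 0, MAX higher in 1 and MLX higher in 2 and lower in 2. The 250 bases of MXD4 (chr4:2262110-2262359, minus strand), with both motifs in capitals, place GGGTGG 11 bases before the start.
MXD4: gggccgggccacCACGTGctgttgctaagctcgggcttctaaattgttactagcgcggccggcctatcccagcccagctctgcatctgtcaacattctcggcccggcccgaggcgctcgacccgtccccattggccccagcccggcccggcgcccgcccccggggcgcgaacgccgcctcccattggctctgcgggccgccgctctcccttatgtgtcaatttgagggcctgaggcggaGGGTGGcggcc
These matches describe the letters of the windows and were not tested for binding.

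Of the other members, positions in hg38 (GENCODE v44) are MYCN at 2:15940550-15947007, MXD1 at 2:69897688-69942945, MXI1 at 10:110207605-110287365 (plus strand), MYCL at 1:39895428-39902256, MAX at 14:65006174-65102695 and MXD3 at 5:177301461-177312757 (minus strand). MXD4 spans 4:2247432-2262109, MNT 17:2384073-2401104 and MLX 17:42567072-42573239.

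Values are in TPM, a transcript abundance scaled by transcript length and by library, so that levels of different genes can be set side by side. Every library summed to 1000000, the read depth behind it is unknown, and 11292 to 14024 genes reached 1 TPM. Differences are on the log2(TPM + 1) scale, which understates the change of low genes. A gene is called higher or lower at a Benjamini-Hochberg adjusted p of 0.05 over all genes of the comparison in limma. RUVBL1 mRNA fell to 0.271 to 0.448 of control in its 5 knockouts and RUVBL2 to 0.291 to 0.43 in its 4, with no overlap between libraries. KLF5 mRNA was 0.753 to 1.7 times control and did not overlap in 2 of 8 comparisons (0.753 in CFPAC-1 and 1.7 in T3M-4 experiment 2), so mRNA does not check the KLF5 labels. In CFPAC-1, CDK1 mRNA was 0.931 of control with overlap in the libraries labelled sgCDK1, while those labelled sgRPA3 had RPA3 mRNA at 0.824 and CDK1 mRNA at 0.402 of control, neither overlapping. TP63, a basal marker, averaged 84.03 TPM in T3M-4 and 103.9 TPM in BxPC-3 and at most 1.06 TPM in the other pancreatic lines, while HNF4A, a classical marker, averaged 53.1 TPM in AsPC-1, 17.6 TPM in SUIT-2 and 10.8 TPM in CFPAC-1. MYOD1 stood at 736.5 TPM in RH30, POU2F3, a tuft cell factor, at 476 TPM in H1048, SOX10 at 235 TPM in A-375 and CDX1 at 137 TPM in T84, although the pigment gene PMEL was at 0.914 TPM in A-375. SUIT-2 sgRosa replicate 1 and T3M-4 experiment 1 sgKLF5 replicate 2 stood apart from their groups, and values without them are given beside the results they touch.

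MYC was the dominant family member in the untreated lines, and A-375 was the exception in level. Control means ran from 118 TPM in T84 through 90.7 in T3M-4, 86.4 in AsPC-1, 81.6 in CFPAC-1, 68.3 in BxPC-3, 67.2 in RH30, 58.0 in SUIT-2 and 50.1 in H1048 to 6.37 TPM in A-375. Neighbours in that order overlapped except A-375, whose 4 libraries (5.90 to 6.98 TPM) lay below every library of H1048. Without SUIT-2 sgRosa replicate 1, SUIT-2 averaged 69.4 TPM, between CFPAC-1 and BxPC-3, and the libraries of RH30 and H1048, then neighbours, did not overlap. The order carries an error from experiments, since the experiment means of AsPC-1 sgRosa or DMSO libraries ran from 63.2 to 121.7 TPM. MYC made up 75.7% of the summed MYC, MYCN and MYCL TPM in RH30 and 87.0% in H1048, and at least 93.6% in each of the other lines.

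MYCN and MYCL, the family members named for neuroblastoma and small cell lung cancer, were highest in RH30, at 10.8 TPM each. MYCN followed at 3.16 TPM in H1048 and 3.08 in T84, and was at 0.998 TPM or below in the other 6 lines. It was listed at 0 in 60 of the 183 libraries. MYCL was 5.0 TPM in T84, 4.30 in H1048, 3.34 in T3M-4 and 3.0 in BxPC-3. Among these, only lines next to each other in this order overlapped. It was 0.809 TPM or below in SUIT-2, A-375, CFPAC-1 and AsPC-1. Because of these levels MYCN was not tested in 30 of the 43 comparisons and MYCL in 20.

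MAX stood at 77.7 TPM in CFPAC-1, apart from T84 at 52.9, and at 32.9 to 48.1 TPM in the other 7 lines. Of the repressive partners, MXD1 separated the lines most: it was 45.1 TPM in T3M-4 and 26.8 in BxPC-3 against 2.68 in RH30 and 2.22 in SUIT-2. MXD3 and MXD4 were highest in H1048, at 49.0 and 45.1 TPM, apart from all other lines, and MXD3 was lowest in BxPC-3 at 5.82 TPM. MXD4 was lowest in T3M-4 and T84 (5.48 and 5.19 TPM). MXI1 ran from 23.0 TPM in H1048 to 7.63 in T84, each end apart from the line next in order. AsPC-1 libraries (10.4 to 24.9 TPM) still overlapped those of H1048, and BxPC-3 and SUIT-2 libraries overlapped those of T84. MNT ran from 14.3 TPM in BxPC-3 to 7.31 in CFPAC-1 with no neighbours apart, but without SUIT-2 sgRosa replicate 1 (2.66 TPM) SUIT-2 was highest at 15.6 TPM, overlapping BxPC-3. MLX was 84.7 to 96.7 TPM in T84, RH30, CFPAC-1, A-375 and H1048, and 38.8 to 63.0 TPM in T3M-4, AsPC-1, BxPC-3 and SUIT-2.

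**Figure D1:**
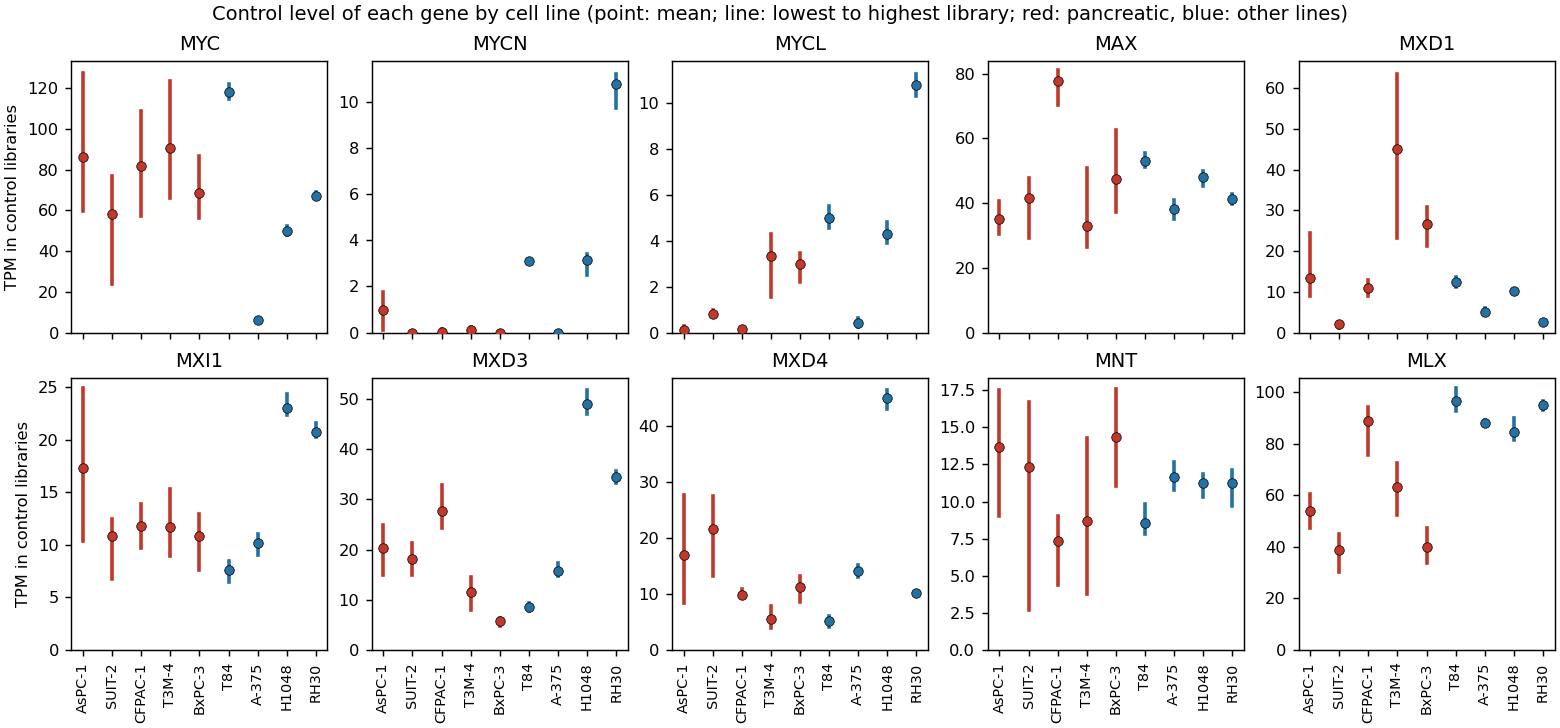
Control levels of the 10 genes by cell line in TPM, each point the mean of the sgRosa or DMSO libraries of a line and each vertical line their lowest to highest value, with pancreatic lines in red and the others in blue. MYC lies between 50.1 and 118 TPM on average in 8 lines and at 6.37 TPM in A-375, while MYCN and MYCL are near 0 in most pancreatic lines.

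CB-6644 lowered MYC mRNA in each of the 6 lines. In AsPC-1 with empty vector, MYC was 34.5, 35.3 and 39.4 TPM in CB-6644 against 70.8 (A62T), 59.9 (dF109) and 72.4 TPM (EV) in the 3 DMSO libraries. T3M-4 with empty vector had 29.4, 37.3 and 47.3 TPM against 123, 96.7 and 81.4 TPM in the same order of constructs. No treated library reached the lowest DMSO library of its line.

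The lines without a construct gave the same separation. MYC was 54.6, 55.7, 57.0 and 57.2 TPM in treated T84 against 114, 118, 118 and 122 TPM in DMSO. H1048 had 27.6, 29.3, 29.8 and 30.5 TPM against 48.0, 48.6, 51.2 and 52.5 TPM. RH30 had 32.1, 32.9, 33.1 and 34.6 TPM against 66.0, 66.9, 67.0 and 68.8 TPM. A-375, from its much lower level, had 2.78, 2.87, 2.96 and 3.45 TPM against 5.90, 6.10, 6.51 and 6.98 TPM.

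As means, MYC went from 67.7 ± 6.84 TPM (SD, n = 3) to 36.4 ± 2.66 TPM (n = 3) in AsPC-1, and from 100.5 ± 21.2 TPM (n = 3) to 38.0 ± 8.99 TPM (n = 3) in T3M-4. The treated mean was 0.475 of the DMSO mean in T84, 0.473 in A-375, 0.585 in H1048 and 0.494 in RH30. The log2 changes were -0.87 ± 0.0857 (SE) in AsPC-1 (adjusted p = 3.73e-06), -1.39 ± 0.163 in T3M-4 (adjusted p = 0.000115) and -1.06 ± 0.042 in T84 (adjusted p = 2.01e-11). They were -0.88 ± 0.0738 in A-375 (adjusted p = 5.6e-07), -0.75 ± 0.0439 in H1048 (adjusted p = 1.69e-08) and -1.0 ± 0.0322 in RH30 (adjusted p = 6.64e-11). The median gene moved up by 0.04 to 0.19 in these comparisons, and relative to it the MYC changes were -1.07, -1.42, -1.19, -1.03, -0.93 and -1.13 in the same order of lines. MYC stayed called in the 6 lines under every alternative that tested it and without any single library. The filter of 5 TPM left MYC untested in A-375, and the replicate block could not be fitted in AsPC-1 and T3M-4. CB-6644 moved many genes, since 64.4% of genes were called in AsPC-1, 34.3% in T3M-4, 71.4% in T84, 81.1% in A-375, 77.9% in H1048 and 77.7% in RH30.

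Among the 4 lines without a construct, each was compared with the mean of the other 3. On the log2(TPM + 1) scale the MYC fall was larger in T84, by -0.18 (adjusted p = 0.00423), and smaller in H1048, by 0.23 (adjusted p = 0.000668). As a ratio of treated to DMSO means, given above, the fall in T84 was close to those in A-375 and RH30. The log2 scale used here understates the change of MYC in A-375, where it is low. Differences between a line and the other 3 were called for 52.9% of genes and 6 of 10 members in T84, 60.5% and 8 of 10 in A-375, 53.6% and 7 of 10 in H1048, and 56.3% and 5 of 10 in RH30.

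**Figure D2:**
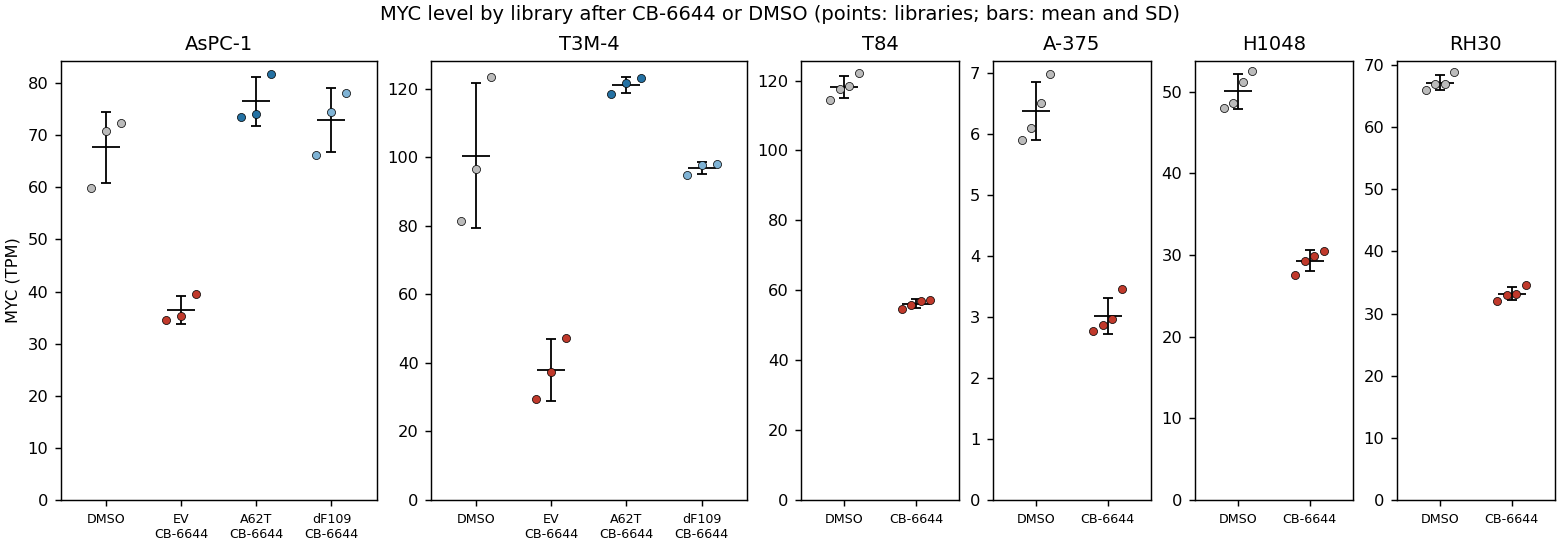
MYC in TPM in every library of the CB-6644 experiments, by line, construct and treatment, each point 1 library and the bars the mean and SD. Treated libraries of lines without a resistant variant lie below all DMSO libraries of their line, and the A62T and dF109 libraries lie with DMSO.

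Cells with a resistant RUVBL1 or RUVBL2 kept MYC mRNA at the DMSO level in CB-6644. In AsPC-1, MYC was 73.5, 74.2 and 81.8 TPM with A62T and 66.2, 74.5 and 78.1 TPM with dF109. In T3M-4, it was 119, 122 and 123 TPM with A62T and 94.8, 97.9 and 98.1 TPM with dF109. All 12 lay above every empty-vector library in the drug.

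Against empty vector in CB-6644, MYC was higher by 1.05 ± 0.0857 on the log2 scale with A62T (adjusted p = 1.95e-06) and by 0.98 with dF109 (adjusted p = 4.06e-06) in AsPC-1. In T3M-4 the differences were 1.67 ± 0.163 (adjusted p = 9.21e-05) and 1.35 (adjusted p = 0.00093). The single T3M-4 DMSO libraries already stood at 123 (A62T), 96.7 (dF109) and 81.4 TPM (EV). The part of the construct in the T3M-4 differences was not tested. The change from DMSO was not called in the variant cells, with intervals of -0.01 to 0.36 and -0.08 to 0.29 in AsPC-1 (adjusted p = 0.171 and 0.344) and -0.07 to 0.64 and -0.39 to 0.33 in T3M-4 (adjusted p = 0.152 and 0.887) for A62T and dF109. Without the A62T DMSO library, the T3M-4 A62T cells in the drug were higher than DMSO by 0.44 (adjusted p = 0.0276). In T3M-4 after scaling by the median of ratios (each library divided by its median ratio to the geometric mean), the dF109 cells were lower than DMSO by -0.38 (adjusted p = 0.0137). The variants carry much more RUVBL1 or RUVBL2 mRNA than empty vector (2851 TPM of RUVBL1 with A62T in AsPC-1), which was not separated from resistance.

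Of the other family members in CB-6644, MYCN and MYCL were lower or not called. MYCN in T84 was 3.004, 3.07, 3.11 and 3.16 TPM in DMSO and 0.565, 0.726, 1.05 and 1.09 TPM in the drug, with no overlap. Its log2 change there was -1.15 (adjusted p = 1.59e-07), and in RH30, from 10.8 to 6.92 TPM, -0.58 (adjusted p = 3.12e-05). MYCL fell from 4.30 to 2.98 TPM in H1048 (-0.41, adjusted p = 0.000606) and from 10.8 to 8.98 TPM in RH30 (-0.24, adjusted p = 0.0016). Its call in T3M-4, from 3.90 to 2.82 TPM (-0.36, adjusted p = 0.0355), was lost without the A62T DMSO (adjusted p = 0.0548), EV DMSO (0.0768), EV CB-6644 replicate 2 (0.0869) or EV CB-6644 replicate 3 library (0.0786).

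MAX, the obligate partner, was lower in 3 of the 6 lines. In H1048 it was 45.4, 47.7, 49.4 and 50.1 TPM in DMSO and 31.2, 32.7, 34.6 and 37.5 TPM in the drug (-0.49, adjusted p = 4.93e-06). The falls in T84 (52.9 to 43.1 TPM, -0.29, adjusted p = 7.83e-05) and RH30 (41.4 to 35.4 TPM, -0.22, adjusted p = 0.00136) were smaller. In T3M-4, MAX was 29.8 TPM in the drug and its change of -0.40 was not called (adjusted p = 0.0962), but the DMSO libraries differed by construct, at 27.96 TPM with EV, 42.6 with dF109 and 51.0 with A62T, and without the EV DMSO library the change was -0.63 (adjusted p = 0.00105). AsPC-1 MAX was called without the dF109 DMSO library, at -0.23 (adjusted p = 0.0379).

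MLX fell in the 4 lines without a construct, from 95.0 to 73.8 TPM in RH30 (-0.36, adjusted p = 7.03e-07), from 84.7 to 70.9 TPM in H1048 (-0.25, adjusted p = 4.33e-05), from 96.7 to 85.0 TPM in T84 (-0.18, adjusted p = 0.00203) and from 88.1 to 80.0 TPM in A-375 (-0.14, adjusted p = 0.000266). Its libraries did not overlap in any of the 4. In T3M-4 it was not called (-0.18, adjusted p = 0.144), except without the EV DMSO library (-0.27, adjusted p = 0.0117) or after median-of-ratios scaling (-0.28, adjusted p = 0.00863).

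The repressive partners did not move one way. MXI1 fell in 4 lines. In AsPC-1 it was 15.5 (EV), 22.7 and 24.9 TPM in DMSO and 10.9, 11.8 and 13.1 TPM in the drug (-0.75, adjusted p = 0.000388), with the EV DMSO library the lowest control. In T84 it was 6.46, 7.66, 7.96 and 8.43 TPM in DMSO and 3.87, 4.61, 4.76 and 4.80 TPM in the drug (-0.65, adjusted p = 1.29e-05). The falls were -0.37 in H1048 (23.0 to 17.6 TPM, adjusted p = 7.8e-06) and -0.18 in RH30 (20.7 to 18.2 TPM, adjusted p = 0.00129). In AsPC-1 with a variant, MXI1 stayed at 24.1, 25.3 and 26.6 TPM (A62T) and 22.9, 24.2 and 24.2 TPM (dF109), higher than empty vector by 1.03 (adjusted p = 6.01e-05) and 0.94 (adjusted p = 0.000134). The DMSO library of EV already stood below those of the variants, so the part of the construct was not tested.

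MXD3, the repressive partner expressed in S phase, rose in AsPC-1 and T84 and fell in RH30. In AsPC-1 it was 14.9, 14.9 and 15.1 TPM in DMSO and 25.5, 28.3 and 28.5 TPM in the drug (0.83, adjusted p = 2.56e-06). In T84 it was 7.79, 8.31, 8.59 and 9.34 TPM in DMSO and 16.1, 16.2, 16.4 and 17.0 TPM in the drug (0.87, adjusted p = 1.96e-08). In RH30 it was 33.2, 33.9, 34.8 and 35.7 TPM in DMSO and 25.9, 27.5, 28.5 and 29.1 TPM in the drug (-0.30, adjusted p = 2.99e-05). The groups do not overlap in these 3 lines, and the change in T84 was larger than the mean of the other lines by 0.92 (adjusted p = 3.65e-12) and that in RH30 lower by -0.65 (adjusted p = 3.32e-09). MXD3 in A-375 (15.8 to 17.8 TPM, 0.16, adjusted p = 0.0233) overlapped, was lost without DMSO replicate 1 (adjusted p = 0.0682) or 3 (0.064) or CB-6644 replicate 3 (0.0656) or 4 (0.0579), and turned to -0.05 with median-of-ratios scaling. T3M-4 MXD3 was not called (0.38, adjusted p = 0.09) unless EV CB-6644 replicate 3 (0.51, adjusted p = 0.0322) or the EV DMSO library (0.56, adjusted p = 0.00913) was left out.

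MXD3 with a variant stood below empty vector in both lines: it was lower than in empty vector by -0.36 with A62T (adjusted p = 0.00214) and -0.47 with dF109 (adjusted p = 0.000426) in AsPC-1, and by -0.55 (adjusted p = 0.0173) and -0.50 (adjusted p = 0.0355) in T3M-4. The T3M-4 call with A62T was lost without EV CB-6644 replicate 1 (adjusted p = 0.053), and that with dF109 without dF109 replicate 1, 2 or 3 or EV CB-6644 replicate 1 or 2 (adjusted p from 0.0734 to 0.102). In AsPC-1 the variant cells in the drug were still above DMSO, by 0.47 (adjusted p = 0.00753) and 0.36 (adjusted p = 0.00611), so the level was between those of the other groups. After scaling the dF109 difference was 0.18 (adjusted p = 0.0686).

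MXD1 rose in A-375, from 4.74, 4.89, 4.98 and 6.03 TPM to 9.21, 9.35, 9.45 and 9.79 TPM (0.77, adjusted p = 9.05e-07), and in RH30, from 2.47, 2.73, 2.74 and 2.77 TPM to 4.25, 4.36, 4.37 and 4.70 TPM (0.56, adjusted p = 7.47e-06). In both lines every treated library lay above every control. In AsPC-1 it was 19.3 TPM in DMSO and 27.3 TPM in the drug (0.51, adjusted p = 0.00572), a difference of 0.15 (adjusted p = 0.274) against the EV DMSO library alone, which held 24.4 TPM. T3M-4 MXD1 was called without the EV DMSO library, at -0.60 (adjusted p = 0.00689), and not with it (-0.38, adjusted p = 0.134).

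MXD4 rose in RH30, from 9.90, 9.95, 10.3 and 10.4 TPM to 16.8, 18.2, 18.9 and 19.1 TPM (0.79, adjusted p = 1.7e-08), which was 0.78 above the mean of the other 3 lines (adjusted p = 2.26e-08). In H1048 it rose from 45.1 to 54.8 TPM (0.27, adjusted p = 0.000195), a call lost with median-of-ratios scaling (0.06, adjusted p = 0.23). In AsPC-1 (15.3 to 19.9 TPM, 0.36, adjusted p = 0.0115) the call was lost without EV CB-6644 replicate 3 (adjusted p = 0.0553), the change was 0.23 (adjusted p = 0.036) without the EV DMSO library, and after scaling it was 0.10 (adjusted p = 0.463). In T3M-4 (6.01 to 9.90 TPM, 0.64, adjusted p = 0.0257) the groups overlapped and the call was lost without the A62T DMSO (adjusted p = 0.0614), dF109 DMSO (0.101), EV CB-6644 replicate 1 (0.0818) or EV CB-6644 replicate 2 library (0.0815). In T84 it was not called (-0.20, adjusted p = 0.142), except without DMSO replicate 3 (-0.29, adjusted p = 0.03) or after scaling (-0.35, adjusted p = 0.011).

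MNT, the broadly expressed repressive partner, fell in RH30, from 9.68, 11.5, 11.7 and 12.1 TPM to 7.70, 8.45, 8.46 and 9.02 TPM (-0.38, adjusted p = 0.000324), with no overlap. Its calls in A-375 (11.6 to 13.3 TPM, 0.18, adjusted p = 0.0116) and H1048 (11.3 to 12.8 TPM, 0.17, adjusted p = 0.039) both turned to -0.03 after median-of-ratios scaling, and in H1048 the groups overlapped.

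Over the 56 member tests of the 6 CB-6644 comparisons, 12 were higher and 24 lower, beside 67.7% of all genes called. The split depends on scaling, and by the median of ratios it was 7 higher and 38 lower. By line, 5 of 9 members were called in AsPC-1, 3 of 9 in T3M-4, 6 of 10 in T84, 5 of 8 in A-375, 7 of 10 in H1048 and 10 of 10 in RH30. Of the 36 calls, 31 held without each library in turn and 28 under every alternative that tested them. Among the 28 were all 6 of MYC, 4 of 4 of MXI1, 4 of 4 of MLX, 3 of 3 of MAX and 1 of 4 of MXD4.

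Against empty vector in the drug, the variants gave 13 higher and 5 lower calls in 36 member tests. In AsPC-1, 3 of 9 members were called with A62T (51.1% of all genes) and 4 of 9 with dF109 (47.2%). In T3M-4, 6 of 9 were called with A62T (50.6%) and 5 of 9 with dF109 (34.6%). MXD1 in T3M-4 was 24.6 TPM with EV, 57.8 with A62T (1.21, adjusted p = 0.000704) and 55.3 with dF109 (1.15, adjusted p = 0.00276), but its DMSO libraries already stood at 23.1, 44.03 and 31.9 TPM. MAX (0.78, adjusted p = 0.00412, and 0.66, adjusted p = 0.0158) and MNT (1.15, adjusted p = 0.00535, and 0.92, adjusted p = 0.0236) in T3M-4 were likewise higher with A62T and dF109 than with EV in the drug. The part of the construct in these 3 genes was not tested, since each construct had 1 DMSO library. The MAX call with dF109 was lost without dF109 replicate 1 (adjusted p = 0.0536) or 2 (0.0526) or EV CB-6644 replicate 3 (0.0527), and the MNT call with dF109 without any one of its 3 libraries (adjusted p from 0.0598 to 0.0746). The MNT change was 0.56 (adjusted p = 0.0497) without EV CB-6644 replicate 3. MLX with A62T, from 54.2 to 67.9 TPM (0.32, adjusted p = 0.0124), was at 0.04 (adjusted p = 0.713) after scaling. MXD1 in AsPC-1 was 27.3 TPM with EV and 19.1 TPM with dF109 in the drug (-0.49, adjusted p = 0.0102), but the single DMSO libraries of these constructs already stood at 24.4 and 14.9 TPM, so the part of the construct was not tested there either. Compared with DMSO, variant cells in the drug had 5 higher and 0 lower member calls in 36 tests (12.7% of all genes with A62T and 33.4% with dF109 in AsPC-1, 50.0% and 37.6% in T3M-4), which became 3 higher and 8 lower by the median of ratios. MXD1 in T3M-4 was above DMSO in both variants, by 0.84 (adjusted p = 0.00759) and 0.77 (adjusted p = 0.0102).

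The sum of MYC, MYCN and MYCL divided by the sum of MXD1, MXD3, MXD4, MXI1 and MNT (both in TPM) fell with CB-6644 in each line. The mean ratio went from 0.809 to 0.358 in AsPC-1, from 1.5 to 0.613 in T3M-4 and from 2.99 to 1.31 in T84. It went from 0.119 to 0.0596 in A-375, from 0.415 to 0.244 in H1048 and from 1.12 to 0.637 in RH30. Libraries did not overlap in any line. In the variant cells it was 0.716 (A62T) and 0.724 (dF109) in AsPC-1 and 1.27 and 1.09 in T3M-4. The ratio is a description of mRNA, with no test.

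Genes that MYC activates in textbook accounts, mostly of ribosome production, were lower in CB-6644. Of 30 listed genes, 26 or 27 were tested in a line. They were lower in 16 and higher in 2 of 26 in AsPC-1, lower in 20 and higher in 0 of 27 in T3M-4, lower in 23 and higher in 1 of 26 in T84, lower in 16 and higher in 4 of 26 in A-375, lower in 20 and higher in 2 of 26 in H1048, and lower in 24 and higher in 0 of 26 in RH30. The median of the list was -0.31, -0.45, -0.48, -0.18, -0.31 and -0.34 in that order, beside medians of all genes of 0.19, 0.04, 0.13, 0.16, 0.18 and 0.13. In the same order of lines, 17.2%, 15.2%, 24.2%, 29.7%, 24.0% and 27.3% of all genes were called lower.

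RRS1, a ribosome assembly factor, was among the 2 largest falls of the list in all 6 lines, for example from 36.5 to 19.6 TPM in AsPC-1 (-0.86, adjusted p = 1.18e-06) and from 53.3 to 21.9 TPM in T3M-4 (-1.23, adjusted p = 2.82e-05). NPM1, a nucleolar chaperone, fell from 4445 to 2377 TPM in A-375 (-0.90, adjusted p = 3.78e-11). SRM, spermidine synthase, fell by 1.43 in T3M-4 and 0.80 in T84, and NOP2, an rRNA methyltransferase, by 0.79 in RH30. ODC1, the first enzyme of polyamine synthesis, went the other way in AsPC-1 (203 to 283 TPM, 0.49, adjusted p = 0.000802), as did the nucleolar NOP56 in H1048 (0.48). With the variants, 15 of 26 listed genes were higher than with EV for both constructs in AsPC-1, and 13 and 15 of 27 in T3M-4. Of all genes, 18.85% (A62T) and 20.9% (dF109) were higher in AsPC-1, and 41.4% and 29.8% in T3M-4.

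Of the genes that MYC represses, 4 were higher and 0 lower of 8 in AsPC-1 (beside 47.2% of all genes called higher), 3 and 2 of 8 in T3M-4 (19.1%), 6 and 2 of 8 in T84 (47.2%), 4 and 2 of 7 in A-375 (51.5%), 5 and 3 of 8 in H1048 (53.9%), and 7 and 1 of 8 in RH30 (50.4%). In AsPC-1, A-375 and H1048 the share called higher was near that of all genes. CDKN1A, which encodes the CDK inhibitor p21, rose from 107.8 to 447 TPM in A-375 (2.04) and from 58.3 to 152 TPM in AsPC-1 (1.42), and CDKN2B, which encodes p15, rose in T84 (1.46), H1048 (1.69) and RH30 (1.59). THBS1, a secreted inhibitor of angiogenesis on the same list, fell in T3M-4 (-1.69), A-375 (-1.87), H1048 (-1.37) and RH30 (-1.17). CDKN1A has regulators other than MYC, whose part was not tested.

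KAT5, the acetyltransferase of the TIP60-EP400 complex that contains RUVBL1 and RUVBL2, had the largest fall of the 16 listed MYC regulators and cofactors in all 6 lines. Its mean went from 53.2 to 17.9 TPM in AsPC-1 (-1.52), from 51.3 to 15.9 in T3M-4 (-1.62), from 41.6 to 13.0 in T84 (-1.61), from 41.6 to 10.6 in A-375 (-1.88), from 49.3 to 8.63 in H1048 (-2.39) and from 25.6 to 6.16 in RH30 (-1.90). Counts over this list were mixed, for example 8 higher and 2 lower of 16 in AsPC-1 (47.2% and 17.2% of all genes). RH30 had 5 higher and 6 lower (50.4% and 27.3% of all genes). Of the other proteins of the network (MGA, MLXIP and MLXIPL), MLXIPL rose from 2.06 to 6.81 TPM in T3M-4 (1.24) and from 14.1 to 39.4 TPM in H1048 (1.42).

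With knockout of RUVBL1 or RUVBL2 the calls were spread over the members. MXD1 was higher in 5 of 9 comparisons and lower in none, MXD3 was lower in 5 of 9 and higher in none, MYC was lower in 3 of 9, MXD4 and MNT were called in 4 of 9 each and MXI1 in 1 of 9. Over all members, 12 of 78 tests were higher and 14 lower, beside 38.7% of all genes called, so members were not called more often than other genes. By comparison, 4 of 8 members were called with sgRUVBL1 in AsPC-1 experiment 2 (55.8% of all genes), 4 of 9 in AsPC-1 experiment 3 (51.9%), 5 of 9 in T3M-4 (60.5%), 1 of 9 in BxPC-3 (16.0%) and 4 of 8 in CFPAC-1 (43.8%). With sgRUVBL2, 2 of 9 were called in AsPC-1 experiment 3 (43.2%), 5 of 9 in T3M-4 (54.5%), 0 of 9 in BxPC-3 (9.76%) and 1 of 8 in CFPAC-1 (12.1%).

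MXD1 in T3M-4 was 34.8, 46.2, 47.8 and 53.8 TPM with sgRosa, 91.7, 92.6 and 110.2 TPM with sgRUVBL1 and 69.6, 74.3, 85.8 and 93.7 TPM with sgRUVBL2. Every knockout library lay above every control (1.1 ± 0.129, adjusted p = 2.18e-06, and 0.82 ± 0.12, adjusted p = 2.25e-05). In AsPC-1 experiment 2 it was 9.08, 9.33, 9.75 and 10.8 TPM with sgRosa and 11.7, 12.3, 14.1 and 14.2 TPM with sgRUVBL1 (0.39, adjusted p = 0.00261). In experiment 3 it was 13.0, 14.6, 16.9 and 17.4 TPM with sgRosa, 21.6, 22.9, 24.6 and 24.7 TPM with sgRUVBL2 (0.57, adjusted p = 0.00067) and 15.0, 18.2, 18.4 and 20.1 TPM with sgRUVBL1, which overlapped the controls and was not called.

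In BxPC-3 MXD1 was 21.3, 26.5, 30.5 and 30.8 TPM with sgRosa and 33.5, 34.1, 41.6 and 44.7 TPM with sgRUVBL1 (0.49, adjusted p = 0.0268), a call lost without sgRosa replicate 1 (adjusted p = 0.0601) or 2 (0.101) or sgRUVBL1 replicate 2 (0.0823) or 4 (0.0825). With sgRUVBL2 in BxPC-3 the change was 0.44 (adjusted p = 0.073), or 0.65 (adjusted p = 0.0104) without sgRUVBL2 replicate 3. In CFPAC-1 MXD1 was not called with sgRUVBL1 (-0.24, adjusted p = 0.141), except at -0.32 (adjusted p = 0.0489) without sgRosa replicate 4 and -0.34 (adjusted p = 0.0334) without sgRUVBL1 replicate 2, so the direction was not shared by all lines.

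MXD3 fell in both AsPC-1 experiments and in T3M-4. In AsPC-1 experiment 2 it was 18.4, 20.1, 20.5 and 24.8 TPM with sgRosa and 15.0, 15.3, 16.3 and 16.5 TPM with sgRUVBL1 (-0.38, adjusted p = 0.0128). In experiment 3 it was 20.7, 21.1, 24.5 and 24.8 TPM with sgRosa, 10.7, 12.8, 13.0 and 16.5 TPM with sgRUVBL1 (-0.75, adjusted p = 0.00015) and 11.1, 11.2, 13.1 and 18.05 TPM with sgRUVBL2 (-0.75, adjusted p = 0.000238). In T3M-4 it was 11.05, 14.0, 14.3 and 14.5 TPM with sgRosa, 7.48, 8.40 and 8.68 TPM with sgRUVBL1 (-0.65, adjusted p = 2.98e-05) and 9.07, 9.46, 9.69 and 10.5 TPM with sgRUVBL2 (-0.43, adjusted p = 0.000768). Groups did not overlap in any of these, and the 5 calls held under every alternative and without every library. In CFPAC-1 with sgRUVBL1 it was not called (-0.39, adjusted p = 0.0769) but was so when sgRUVBL1 replicate 3 was left out (-0.57, adjusted p = 0.0103). In AsPC-1, MXD3 thus fell in RUVBL1 and RUVBL2 knockouts on day 5 and rose in CB-6644 after 24 h. The 2 treatments differ in time and in libraries, and their difference was not tested.

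**Figure D3:**
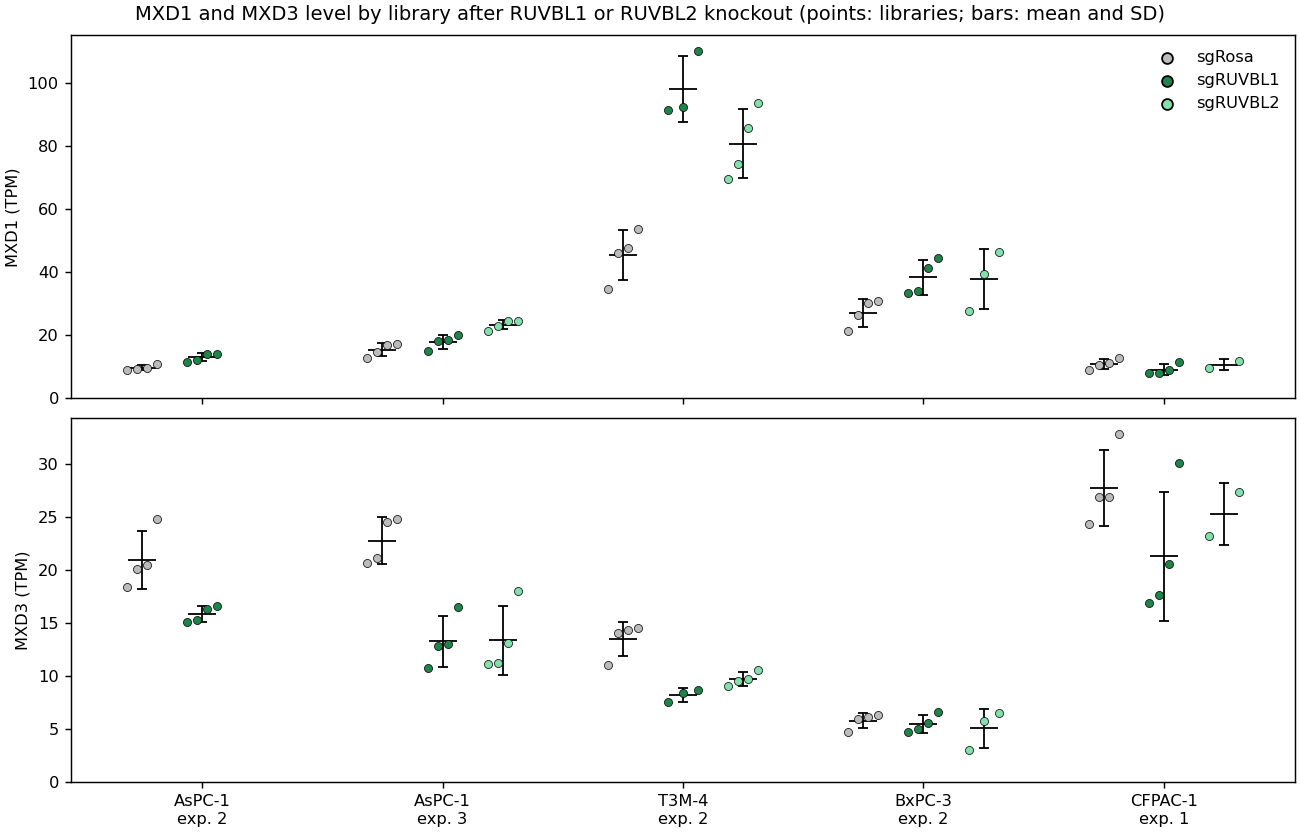
MXD1 and MXD3 in TPM in each sgRosa, sgRUVBL1 and sgRUVBL2 library by line and experiment, each point 1 library and the bars the mean and SD. In T3M-4 the MXD1 points of both knockouts lie above all sgRosa points and the MXD3 points below them.

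MYC itself moved little in the knockouts. In AsPC-1 experiment 2 it averaged 104 TPM with sgRosa and was 83.3, 87.9, 90.8 and 97.9 TPM with sgRUVBL1, overlapping the lowest control at 93.8 TPM (-0.21 ± 0.0675, adjusted p = 0.0154). In experiment 3 it was 61.9, 63.1, 63.8 and 64.1 TPM with sgRosa and 46.8, 49.6, 54.1 and 55.2 TPM with sgRUVBL1 (-0.30 ± 0.11, adjusted p = 0.0304). In CFPAC-1 it was 57.3, 77.3, 83.0 and 109 TPM with sgRosa and 57.5, 58.8, 62.3 and 62.3 TPM with sgRUVBL1 (-0.40 ± 0.131, adjusted p = 0.0224).

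None of these 3 MYC calls held without every library. The first was lost without sgRosa replicate 4 (adjusted p = 0.0531) or sgRUVBL1 replicate 3 (0.0596). The second was lost without sgRosa replicate 1 (adjusted p = 0.0547), 2 (0.0585) or 4 (0.0609) or sgRUVBL1 replicate 1 (0.0943) or 2 (0.0715). The third was lost without sgRosa replicate 1 (adjusted p = 0.0534) or 2 (-0.25, adjusted p = 0.0697), with only the groups compared in the fit (adjusted p = 0.0697) and after median-of-ratios scaling (-0.18, adjusted p = 0.298). MYC was not called with sgRUVBL1 in T3M-4 (0.10, 95% interval -0.15 to 0.35) or BxPC-3 (0.17, -0.05 to 0.40), nor with sgRUVBL2 in T3M-4 (0.08, -0.15 to 0.32), BxPC-3 (0.04), AsPC-1 (-0.22, -0.44 to 0.01) or CFPAC-1 (-0.44, -0.78 to -0.10, adjusted p = 0.0867). The last was called at -0.59 (adjusted p = 0.00311) without sgRosa replicate 4.

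MAX and MNT were called higher in T3M-4 with both knockouts. In CFPAC-1 MNT was called lower with both, and MAX with sgRUVBL1 only. With sgRUVBL1, 45.9% of all genes were higher and 14.6% lower in T3M-4, and 6.54% and 37.3% in CFPAC-1. MAX in T3M-4 was 26.4, 29.4, 31.1 and 31.7 TPM with sgRosa, 39.1, 43.7 and 46.8 TPM with sgRUVBL1 (0.53, adjusted p = 7.21e-05) and 34.2, 40.5, 41.6 and 43.1 TPM with sgRUVBL2 (0.41, adjusted p = 0.000382). MNT there was 3.77, 10.2, 11.4 and 14.3 TPM with sgRosa, 17.9, 18.1 and 19.7 TPM with sgRUVBL1 (0.96, adjusted p = 0.00442) and 11.4, 16.1, 16.4 and 17.6 TPM with sgRUVBL2 (0.69, adjusted p = 0.0221). The last call was lost without sgRUVBL2 replicate 2 (adjusted p = 0.0605) or 4 (0.0521) or with only the groups compared in the fit (0.106). One sgRosa library, replicate 4, held far less MNT than the other 3, and without it the changes were 0.61 (adjusted p = 0.00121) and 0.34 (adjusted p = 0.0368).

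In CFPAC-1, MNT was 4.39, 7.66, 8.15 and 9.04 TPM with sgRosa, 3.11, 3.48, 3.60 and 5.58 TPM with sgRUVBL1 (-0.74, adjusted p = 0.00448) and 2.68 and 3.47 TPM with sgRUVBL2 (-1.0, adjusted p = 0.0105, lost without either sgRUVBL2 library, adjusted p = 0.0684 and 0.108, or with only the groups compared in the fit, 0.091). MAX was 74.7 and 81.5 TPM with sgRUVBL2, overlapping sgRosa, and was not called. With sgRUVBL1 it fell from 77.7 to 64.4 TPM (-0.27, adjusted p = 0.00391), which became -0.05 (adjusted p = 0.603) after median-of-ratios scaling. MXI1 there fell from 11.8 to 8.75 TPM (-0.38, adjusted p = 0.0182), a call lost without sgRosa replicate 2 (adjusted p = 0.0607) or sgRUVBL1 replicate 1 (0.057), with only the groups compared in the fit (0.0568) and after scaling (-0.18, adjusted p = 0.234).

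MXD4 gave opposite results in the AsPC-1 experiments. With sgRUVBL1 it rose from 9.20 to 13.8 TPM in experiment 2 (0.54, adjusted p = 0.000757) and was 26.2 and 20.7 TPM in experiment 3 (-0.32, adjusted p = 0.0196), and the experiments differed by -0.86 (adjusted p = 0.00059), the single member called of 9 beside 18.2% of all genes. The fall was lost without sgRosa replicate 2 (adjusted p = 0.0525) or sgRUVBL1 replicate 4 (0.0566). In T3M-4 MXD4 rose from 5.80 to 7.87 TPM with sgRUVBL1 (0.39, adjusted p = 0.00607; 0.13, adjusted p = 0.357, after scaling) and to 8.59 TPM with sgRUVBL2 (0.50, adjusted p = 0.000519). MYCN in AsPC-1 experiment 3 fell from 1.51 to 0.808 TPM with sgRUVBL1 (-0.48, adjusted p = 0.0261), a call lost without sgRosa replicate 2 (adjusted p = 0.0671) or 4 (0.0726) or sgRUVBL1 replicate 1 (0.0757) or 2 (0.0882). MLX was called in 0 of 9 comparisons (0 of 9 also without any one library except CFPAC-1 sgRosa replicate 4, where sgRUVBL1 gave -0.25, adjusted p = 0.0111).

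MYC-activated genes fell in T3M-4, where MYC did not. With sgRUVBL1 16 were lower and 2 higher of 27, and with sgRUVBL2 20 were lower and 2 higher, with list medians of -0.34 and -0.40 beside 0.25 and 0.19 for all genes. Of all genes in T3M-4, 14.6% were lower and 45.9% higher with sgRUVBL1, and 15.2% and 39.3% with sgRUVBL2. FBL, the rRNA 2′-O-methyltransferase, fell from 309 to 167 TPM (-0.88, adjusted p = 1.06e-07) and 175 TPM (-0.82, adjusted p = 9.43e-08), and NPM1 by 0.68 and 0.74. In CFPAC-1, 14 of 25 were lower with sgRUVBL1, led by CAD, the enzyme that starts pyrimidine synthesis (-1.24), and 5 of 25 with sgRUVBL2. Of all genes in CFPAC-1, 37.3% were lower with sgRUVBL1 and 9.26% with sgRUVBL2. AsPC-1 experiment 2 had 13 lower and 3 higher of 26, while experiment 3 had 6 lower and 7 higher with sgRUVBL1 and 4 lower and 8 higher with sgRUVBL2, where TFB2M, a mitochondrial transcription factor, rose by 0.72 and 0.62. BxPC-3 had 5 lower and 1 higher of 26 with sgRUVBL1 (7.67% and 8.29% of all genes) and 3 lower with sgRUVBL2 (5.485%). Among the MYC-repressed genes, CDKN2B in T3M-4 rose from 19.9 to 64.5 TPM (1.65) and 54.4 TPM (1.4).

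TXNIP and ARRDC4, textbook targets of MLX with the Mondo factors, were the one list with the same direction throughout these knockouts. At least 1 of the 2 was higher in each of the 9 comparisons and neither was lower. Of all genes, 2.83% (sgRUVBL2 in CFPAC-1) to 45.9% (sgRUVBL1 in T3M-4) were called higher in these comparisons. The 2 genes were followed across comparisons after their values were seen. ARRDC4 in T3M-4 rose from 12.4 to 27.5 TPM with sgRUVBL1 (1.08), and TXNIP in BxPC-3 from 230 to 516 TPM (1.21). The same genes were higher in BxPC-3 experiment 2 sgRPA3 cells (TXNIP 748 TPM, 1.76).

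Compared directly, RUVBL1 and RUVBL2 knockouts gave few member differences. Of all genes, 3.71% differed in AsPC-1 experiment 3, 0.0226% in T3M-4, 0.0323% in BxPC-3 and 0.0235% in CFPAC-1. MXD4 in AsPC-1 was the 1 member called, lower with sgRUVBL1 by -0.46 (adjusted p = 0.0262), of 9 tested there, and 0 were called in the other 3 lines.

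CDK1 and RPA3 knockouts served as the comparison for loss of dividing cells, with 2 libraries each. Of 88 member tests, 11 were higher and 2 lower, beside 9.83% of all genes, and by the median of ratios 10 were higher and 8 lower. MYC, MXD3, MNT and MLX were called in none of the 10 comparisons. The calls lay in MXD1 and MXD4 (3 higher and 1 lower each), MAX and MXI1 (2 higher each) and MYCN (1 higher), and 11 of the 13 were lost without some single library. The 2 that held without each library were MXD4 (5.80 to 11.9 TPM, 0.93, adjusted p = 9.19e-05) and MXI1 (12.8 to 21.1 TPM, 0.67, adjusted p = 0.000657) in T3M-4 experiment 2 sgRPA3 cells, of which MXI1 was lost with only the groups compared in the fit (adjusted p = 0.0571). By comparison, 3 of 9 members were called with sgCDK1 in AsPC-1 (16.7% of all genes) and 1 of 9 with sgRPA3 (0.654%), 2 of 9 (16.8%) and 3 of 9 (24.6%) in T3M-4 experiment 2, and 0 of 9 (5.82%) and 2 of 9 (20.8%) in BxPC-3 experiment 2. For sgRPA3 in the first experiments of T3M-4 and BxPC-3, 0 of 9 were called (0% and 0.307%). The CFPAC-1 libraries labelled sgCDK1 gave 0 of 8 (0%) and those labelled sgRPA3 2 of 8 (11.6%). In the comparisons with no call by limma, 1477 genes passed an unadjusted p of 0.05 in CFPAC-1 sgCDK1 and 189 in T3M-4 experiment 1 sgRPA3.

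The mean change of RUVBL1 and RUVBL2 knockouts was tested against the mean change of CDK1 and RPA3 knockouts in the same line and experiment. MXD3 was lower by -0.42 in T3M-4 (adjusted p = 0.00045) and -0.36 in AsPC-1 (adjusted p = 0.0142), and MXD1 was higher by 0.56 in T3M-4 (adjusted p = 0.000367) and 0.41 in BxPC-3 (adjusted p = 0.0248). MYC was lower by -0.36 in AsPC-1 (adjusted p = 0.00385) and -0.56 in CFPAC-1 (adjusted p = 0.00143). MNT in CFPAC-1 differed by -1.29 (adjusted p = 2.47e-05), and MXI1 was lower by -0.36 in T3M-4 (adjusted p = 0.0023), -0.38 in BxPC-3 (adjusted p = 0.0117) and -0.30 in CFPAC-1 (adjusted p = 0.0405). MAX went both ways, at 0.25 in T3M-4 (adjusted p = 0.00922), -0.30 in BxPC-3 (adjusted p = 0.0167) and -0.36 in CFPAC-1 (adjusted p = 0.000192). In all, 4 of 9 members differed in AsPC-1 (52.7% of all genes), 7 of 9 in T3M-4 (46.8%), 4 of 9 in BxPC-3 (26.5%) and 5 of 8 in CFPAC-1 (48.8%), where the guide labels carry the doubt given above.

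KLF5 knockout raised MXD4 in T3M-4, BxPC-3 and AsPC-1. In T3M-4 experiment 2 it was 5.01, 5.09, 6.44 and 6.64 TPM with sgRosa and 10.7, 11.04, 11.2 and 11.4 TPM with sgKLF5 (0.84 ± 0.102, adjusted p = 4.86e-06). In T3M-4 experiment 1 it was 3.95 and 4.12 TPM with sgRosa and 10.3, 11.6, 13.0 and 14.2 TPM with sgKLF5 (1.39 ± 0.271, adjusted p = 0.0266). The MXD4 level in knockout cells was similar in the 2 experiments, and no library overlapped.

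In AsPC-1 experiment 1 MXD4 was 11.2 and 11.7 TPM in the 2 sgRosa libraries and had a lowest value of 21.0 and a highest of 26.2 TPM in the 6 sgKLF5 libraries (0.93 ± 0.102, adjusted p = 8.97e-05). In BxPC-3 it was 11.7 and 13.2 TPM with sgRosa and 20.8, 23.6, 24.3 and 25.4 TPM with sgKLF5 in experiment 1 (0.86 ± 0.128, adjusted p = 0.00115). In BxPC-3 experiment 2 it was 8.58, 9.73, 10.7 and 13.2 TPM with sgRosa and 15.6, 17.2, 17.3 and 18.5 TPM with sgKLF5 (0.66 ± 0.169, adjusted p = 0.00527). The knockout libraries again lay above every control.

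MXD4 was not called in the other 3 KLF5 comparisons. In AsPC-1 experiment 3 it was 24.6, 26.0, 26.5 and 27.6 TPM with sgRosa and 27.9, 31.2, 34.9 and 35.1 TPM with sgKLF5 (0.29, adjusted p = 0.0582, and 0.35, adjusted p = 0.0298, without sgKLF5 replicate 1). SUIT-2 had 13.2, 19.95, 25.7 and 27.4 TPM with sgRosa and 28.2, 29.0, 31.9 and 33.8 TPM with sgKLF5 (0.54, adjusted p = 0.282, and 0.33, adjusted p = 0.191, without sgRosa replicate 1). CFPAC-1 had 9.37, 9.39, 9.40 and 10.9 TPM with sgRosa and 10.2, 10.8 and 10.8 TPM with sgKLF5. The libraries did not overlap in AsPC-1 and SUIT-2 but did in CFPAC-1. The AsPC-1 experiments differed from each other by -0.64 (adjusted p = 0.0157), and their sgRosa levels of MXD4 differed too. The call in T3M-4 experiment 1 was lost without sgRosa replicate 1 (adjusted p = 0.252) or 2 (0.303) or sgKLF5 replicate 1 (0.101), 3 (0.0783) or 4 (0.0633), while without replicate 2, the library that stood apart, it was 1.46 (adjusted p = 0.00106).

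**Figure D4:**
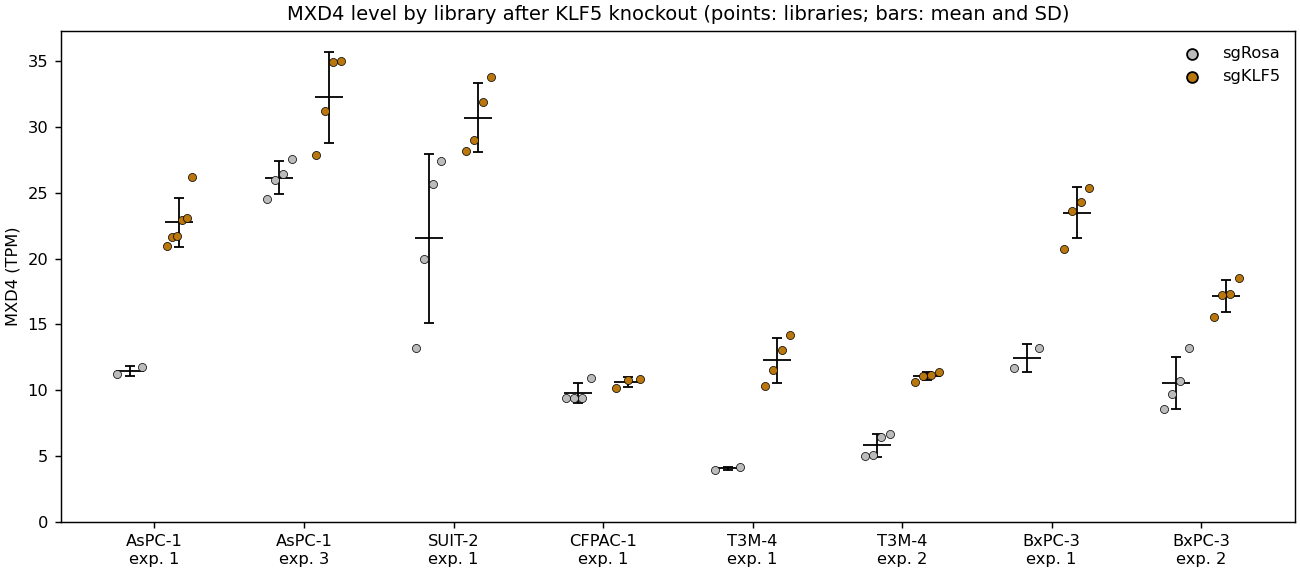
MXD4 in TPM in each sgRosa and sgKLF5 library of the 8 KLF5 comparisons, each point 1 library and the bars the mean and SD. The sgKLF5 points lie above all sgRosa points except in CFPAC-1.

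Over all members, KLF5 knockouts gave 9 higher and 6 lower calls in 70 tests, beside 20.6% of all genes, or 9 higher and 11 lower by the median of ratios. By comparison, 2 of 8 members were called in AsPC-1 experiment 1 (25.9% of all genes), 2 of 9 in experiment 3 (27.8%), 1 of 9 in SUIT-2 (3.94%), 1 of 9 in T3M-4 experiment 1 (5.72%), 5 of 9 in experiment 2 (34.6%), 2 of 9 in BxPC-3 experiment 1 (16.2%), 2 of 9 in experiment 2 (34.6%) and 0 of 8 in CFPAC-1 (16.2%). Without the libraries that stood apart, SUIT-2 gave 2 calls of 9 beside 9.82% of all genes and T3M-4 experiment 1 gave 4 of 9 beside 37.0%, the latter with MXD1 lower (-1.05, adjusted p = 0.000893) and MXD3 (0.83, adjusted p = 0.00434) and MAX (0.36, adjusted p = 0.0351) higher.

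MYC had no direction shared between KLF5 experiments. It fell from 88.7 to 68.8 TPM in T3M-4 experiment 2 (-0.34, adjusted p = 0.025) and from 86.0 to 67.5 TPM in BxPC-3 experiment 1 (-0.35, adjusted p = 0.0472), but the BxPC-3 experiments differed by 0.49 (adjusted p = 0.0409), with 0.14 (adjusted p = 0.348) in experiment 2. In SUIT-2 it averaged 58.0 TPM with sgRosa and 93.9 TPM with sgKLF5 (0.79, interval 0.00 to 1.58, adjusted p = 0.302), and 0.42 (adjusted p = 0.263) without sgRosa replicate 1. The T3M-4 call was lost without sgKLF5 replicate 1 (adjusted p = 0.0595) or 3 (0.0536) or sgRosa replicate 2 (0.0598) or 3 (0.0833), or with only the groups compared in the fit (0.0748). The BxPC-3 call was lost without sgKLF5 replicate 2 (adjusted p = 0.0571) or 4 (0.0878) or sgRosa replicate 1 (0.244) or 2 (0.271), and with a pseudocount of 0.1 (0.0504), no filter (0.0626) or only the groups compared in the fit (0.0556).

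MYCL moved in opposite directions in T3M-4 and SUIT-2. In T3M-4 experiment 2 it fell from 3.22, 3.33, 3.69 and 3.78 TPM with sgRosa to 0.761, 1.37, 1.78 and 2.04 TPM with sgKLF5 (-0.88, adjusted p = 0.000119). In SUIT-2 it was 0.661, 0.760, 0.815 and 0.998 TPM with sgRosa and 1.65, 1.78, 1.90 and 2.13 TPM with sgKLF5 (0.66, adjusted p = 0.0325). Groups did not overlap in either line. The SUIT-2 call was lost without any one of sgKLF5 replicates 1 to 4 or sgRosa replicates 2 to 4 (adjusted p from 0.0765 to 0.12) or after scaling (0.50, adjusted p = 0.138), and was 0.71 (adjusted p = 0.00876) without sgRosa replicate 1, which stood apart.

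MXD1 in AsPC-1 experiment 3 fell from 13.0, 14.6, 16.9 and 17.4 TPM with sgRosa to 7.14, 8.50, 9.95 and 10.2 TPM with sgKLF5 (-0.73, adjusted p = 6.92e-05), opposite to its rise with sgRUVBL2 over the same controls. It was not called in the other comparisons with all libraries in, but was at -0.77 (adjusted p = 0.0067) in BxPC-3 experiment 1 without sgKLF5 replicate 1, at -0.46 (adjusted p = 0.0274) in CFPAC-1 without sgRosa replicate 4, and in T3M-4 experiment 1 as given above. MAX rose from 29.6 to 38.2 TPM in T3M-4 experiment 2 (0.36, adjusted p = 0.00226).

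MLX fell in both AsPC-1 experiments and rose in the second experiments of BxPC-3 and T3M-4. It went from 55.9 to 40.6 TPM in AsPC-1 experiment 3 (-0.46, adjusted p = 4.57e-05) and from 56.8 to 46.9 TPM in experiment 1 (-0.27, adjusted p = 0.027). It rose from 36.7 to 48.5 TPM in BxPC-3 experiment 2 (0.39, adjusted p = 0.000246) and from 60.0 to 68.8 TPM in T3M-4 experiment 2 (0.20, adjusted p = 0.0188), the last becoming 0.06 (adjusted p = 0.362) after scaling. In BxPC-3 experiment 1 it was 45.4 and 47.3 TPM with sgRosa and 40.0, 41.3, 41.6 and 41.7 TPM with sgKLF5, lower in every library but not called (-0.17, adjusted p = 0.32), and the BxPC-3 experiments differed. T3M-4 experiment 1 gave -0.24 (adjusted p = 0.489), or -0.09 (adjusted p = 0.539) without the library that stood apart. The AsPC-1 experiment 1 call was lost without sgRosa replicate 1 (adjusted p = 0.16) or 2 (0.127) or sgKLF5 replicate 5 (0.0549) or 6 (0.0519), and the T3M-4 call without sgKLF5 replicate 4 (adjusted p = 0.0531) or sgRosa replicate 4 (0.0631). Whether the lines differ was not tested.

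The 2 experiments of a line differed for 1 of 9 members in AsPC-1 (4.28% of all genes), 2 of 9 in T3M-4 (17.4%) and 3 of 9 in BxPC-3 (16.7%). In T3M-4 these were MXD1 (1.26, adjusted p = 0.0128) and MXD3 (-1.23, adjusted p = 0.00106), and in BxPC-3 MYC, MXI1 (-0.63, adjusted p = 0.0318) and MLX (0.56, adjusted p = 0.000868).

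The MYC-activated list had no direction shared between KLF5 knockouts. In BxPC-3 experiment 2, 22 of 26 genes were higher and 1 lower (21.0% and 13.6% of all genes). The list median was 0.50 beside 0.05 for all genes. NOP56 rose from 242 to 433 TPM (0.86) and ODC1 by 0.79, while TERT, the telomerase catalytic subunit, fell by 0.66. In the 2 comparisons with MYC called lower, 1 was higher and 10 lower of 27 in T3M-4 experiment 2 (23.4% and 11.25% of all genes). BxPC-3 experiment 1, the other, had 2 higher and 1 lower of 27 (8.09% and 8.10% of all genes). In CFPAC-1 6 were higher of 25 (3.26% of all genes). TXNIP was lower in 6 of 8 KLF5 comparisons, in which 1.00% (SUIT-2) to 13.6% (BxPC-3 experiment 2) of all genes were lower. Examples were its falls from 243 to 160 TPM in AsPC-1 experiment 1 (-0.60) and from 493 to 288 TPM in experiment 3 (-0.77). That direction is opposite to the RUVBL1 and RUVBL2 knockouts, with which these comparisons share sgRosa libraries in AsPC-1 experiment 3, CFPAC-1 and the second experiments of T3M-4 and BxPC-3.

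CHD4 knockout, which removes a nucleosome remodeller of the NuRD complex, changed 7 of the 8 members tested in AsPC-1, beside 50.0% of all genes. CHD4 mRNA itself was 1.24 times control and so does not check the label. MLX fell from 50.9, 52.4, 52.8 and 53.2 TPM with sgRosa to 32.4, 37.5, 38.1 and 39.4 TPM with sgCHD4 (-0.50, adjusted p = 6.13e-05). MAX rose from 30.4, 31.3, 32.5 and 35.9 TPM to 42.3, 45.1, 45.6 and 46.4 TPM (0.45, adjusted p = 0.000112). MXD1 rose from 10.5 to 16.6 TPM (0.62, adjusted p = 0.000126). MLX, MAX and MXD1 did not overlap between groups.

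Smaller CHD4 changes were those of MXI1 (17.9 to 13.9 TPM, -0.35, adjusted p = 0.0117), MXD3 (22.3 to 18.7 TPM, -0.24, adjusted p = 0.0099), MXD4 (19.4 to 14.6 TPM, -0.39, adjusted p = 0.0163) and MYC (88.2 to 80.0 TPM, -0.14, adjusted p = 0.0258). The MXD4 call was lost without sgRosa replicate 2 (adjusted p = 0.0535) or 3 (0.0558), and the MYC call without sgCHD4 replicate 1 (adjusted p = 0.0768) or sgRosa replicate 1 (0.0613) or 4 (0.0582) or after scaling (0.079). SERPINB5 knockout, of a gene for a serpin of epithelial cells, called 0 of 8 members beside 0.0343% of all genes.

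Across the 39 comparisons drawn in the heat map, MYC was lower in 12 (6 of CB-6644, 3 of RUVBL1, 2 of KLF5 and 1 of CHD4) and higher in the 4 of a resistant variant against empty vector. MXD4 was higher in 11 knockout comparisons (5 of KLF5, 3 of RUVBL1 or RUVBL2 and 3 of CDK1 or RPA3). It was lower in 1 of RUVBL1 or RUVBL2, 1 of CDK1 or RPA3 and 1 of CHD4. MXD1 was higher in 9 knockout comparisons (5 of RUVBL1 or RUVBL2, 3 of CDK1 or RPA3 and 1 of CHD4). Among knockouts it was lower in 1 of KLF5 and 1 of CDK1 or RPA3. With CB-6644, MXD4 was higher in 4 of 6 comparisons and MXD1 in 3 of 6. Between variants and empty vector in the drug, MXD1 was higher in 2 and lower in 1 of 4. Of all genes, 67.7% were called with CB-6644 and 45.8% between variants and empty vector. The shares were 20.6% with KLF5, 38.7% with RUVBL1 or RUVBL2, 9.83% with CDK1 or RPA3 and 50.0% with CHD4 knockout.

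**Figure D5:**
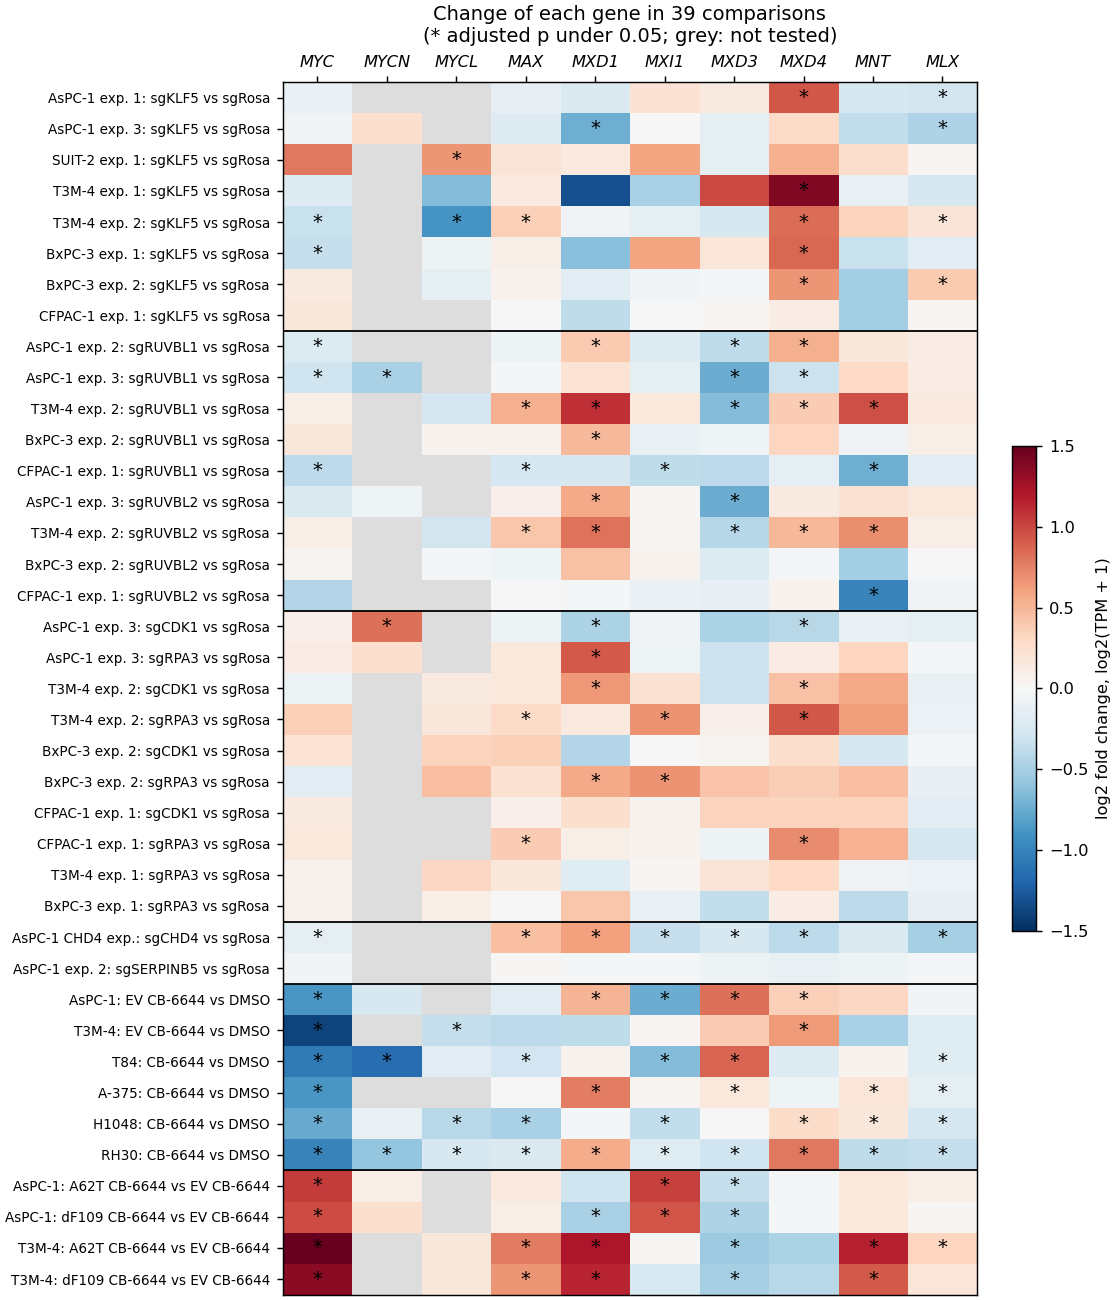
Change of each member on the log2(TPM + 1) scale in 39 comparisons, red for higher and blue for lower than the control, with a mark on called changes and grey where the gene was too low to test. The MYC column is blue in the 6 CB-6644 rows and red in the 4 rows of a resistant variant against empty vector.

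The genes whose change was most like that of each member were ranked by Pearson's r over the 127 treated libraries, each taken as log2(TPM + 1) minus the mean of its own controls, among 13931 genes. The libraries share controls and lines, so the values are a description. MYC was most like GMEB2 (r = 0.842), GTF3C2 (0.825) and PFAS (0.817), a purine synthesis enzyme. MNT was most like BCL9L (0.944), MXD1 like RIOK3 (0.831), RCOR1 (0.831) and LRRC8A (0.820), and MAX like ZHX2 (0.801), SOX9 (0.781) and TRIM8 (0.758). MXD4 was most like RAB40B (0.771), MXD3 like DNPH1 (0.735), MXI1 like FAM102B (0.709), MLX like INO80 (0.692), the ATPase of a remodeller that contains RUVBL1 and RUVBL2, and MYCL like ARSI (0.675).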

How the data were processed

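Poly-A RNA from cultured lines was sequenced as single-end reads, and per the labels and the study's methods the authors quantified transcripts with kallisto 0.45.0 against hg38 and summarised them with tximport 1.36.0. The deposited values are gene-level TPM in 8 tables, normalized within each library. TPM keep no read counts, so depth and counting error are unknown, and the count model used by the study could not be run. No per-sample column was left unmatched (0).

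Here, genes averaging 1 TPM or more within a line and experiment were fitted on log2(TPM + 1) in limma 3.58.1 (R 4.3.3, trended variance, all groups of the experiment in one fit), and p-values were adjusted by Benjamini-Hochberg over all genes of a comparison, two-sided, with calls at 0.05. Intervals are 95% and not adjusted. The fit was tested on simulated data with known changes. Groups came from the sample labels. Alternatives were a pseudocount of 0.1, no filter, a filter of 5 TPM, median-of-ratios scaling, only the groups compared in the fit, the replicate number as a block, a single DMSO library (empty vector) as control, and leaving out each library. The check of pairing is given with the limits.

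The members and gene lists were chosen with earlier results of these data known. Of each list the 2 largest called rises and falls of a comparison were open to naming, with KAT5, THBS1, TXNIP and ARRDC4 followed across comparisons after their values were seen. For each member the 3 most alike genes were ranked. Sequences are RefSeq promoter windows (GRCh38.p14). No protein sequence was used here.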

Additional observations from a re-analysis of the deposited data

Results flagged for a closer look

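Of 263 groups of members and libraries with 4 to 10 samples, 23 held a library whose value lay far from the rest by Dixon's criterion, which chance reaches in about 5 percent of groups. The most frequent gene was MNT, with 5 low libraries: 2.665 TPM in SUIT-2 sgRosa replicate 1 (others 14.5 to 16.7), 6.46 TPM in SUIT-2 sgKLF5 replicate 2 (others 15.5 to 15.9), 3.292 TPM in T3M-4 experiment 1 sgKLF5 replicate 2 (others 9.13 to 9.68), 6.787 TPM in AsPC-1 experiment 2 sgSERPINB5 replicate 4 (others 10.9 to 11.4) and 11.55 TPM in AsPC-1 experiment 3 sgRUVBL2 replicate 2 (others 20.1 to 21.0). SUIT-2 sgRosa replicate 1 and T3M-4 experiment 1 sgKLF5 replicate 2 were also low in other members, with MXD1 at 1.19 TPM (others 2.46 to 2.62) and MXI1 at 6.77 TPM (others 11.98 to 12.42) in the first and MAX at 19.32 TPM (others 34.6 to 37.5) in the second. These are the libraries that stood apart over all genes.

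MYC was 130 TPM in AsPC-1 experiment 1 sgKLF5 replicate 1 (others 107.2 to 114) and 80.8 TPM in T3M-4 experiment 2 sgRUVBL2 replicate 1 (others 95.4 to 97.6). MYCN was low in H1048 DMSO replicate 2 (2.485 TPM) and RH30 DMSO replicate 4 (9.735 TPM), and MYCL high in H1048 CB-6644 replicate 3 (3.319 TPM). MAX was low in BxPC-3 experiment 1 sgKLF5 replicate 3 (55.43 TPM) and RH30 CB-6644 replicate 4 (31.66 TPM), and high in BxPC-3 experiment 2 sgKLF5 replicate 1 (46.39 TPM). Among the repressive partners, MXD1 was low in RH30 DMSO replicate 3 (2.466 TPM), MXD3 in T3M-4 experiment 2 sgRosa replicate 4 (11.05 TPM), MXD4 in H1048 CB-6644 replicate 2 (49.62 TPM) and MXI1 in T3M-4 experiment 2 sgKLF5 replicate 1 (9.804 TPM), and MXD4 was high in CFPAC-1 sgRosa replicate 2 (10.93 TPM). MLX was low in CFPAC-1 sgRosa replicate 4 (75.5 TPM) and T3M-4 experiment 2 sgRosa replicate 4 (52.43 TPM).

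A further 33 results were differences between experiments or lines in the response to the same treatment, by limma's test of the difference. Between experiments these were MXD4 in AsPC-1 with sgKLF5 (-0.64, adjusted p = 0.0157) and with sgRUVBL1 (-0.86, adjusted p = 0.00059), MXD1 (1.26) and MXD3 (-1.23) in T3M-4 with sgKLF5, and MYC (0.49), MXI1 (-0.63) and MLX (0.56) in BxPC-3 with sgKLF5. Between each line without a construct and the mean of the other 3, the CB-6644 response of T84 differed in MYC (-0.18), MYCN (-0.93, adjusted p = 3.73e-08), MXD1 (-0.39), MXD3 (0.92, adjusted p = 3.65e-12), MXD4 (-0.53) and MXI1 (-0.47). That of A-375 differed in MYCN (0.63), MYCL (0.64), MAX (0.32), MXD1 (0.57, adjusted p = 1.88e-08), MXD4 (-0.35), MXI1 (0.43), MNT (0.23) and MLX (0.13). MYCN was listed at 0 in A-375 DMSO libraries and MYCL averaged 0.411 TPM there, so those 2 differences carry the falls of the other lines. That of H1048 differed in MYC (0.23), MYCN (0.46), MYCL (-0.40), MAX (-0.32), MXD1 (-0.48, adjusted p = 7.31e-07), MXD3 (-0.25) and MNT (0.22). That of RH30 differed in MXD1 (0.30), MXD3 (-0.65, adjusted p = 3.32e-09), MXD4 (0.78, adjusted p = 2.26e-08), MNT (-0.52) and MLX (-0.17).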

How the results depend on the processing

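Of 120 member calls in 380 tests, 75 held under every alternative that tested them and without each library, and 45 were lost at least once. With one library left out, calls ranged from 14 to 18 for KLF5, 23 to 29 for RUVBL1 and RUVBL2, 10 to 15 for CDK1 and RPA3 and 34 to 39 for CB-6644. No direction turned under the pseudocount, filter, group or left-out-library alternatives. With median-of-ratios scaling MNT in A-375 (-0.0295, adjusted p = 0.642), MXD3 in A-375 (-0.0482, adjusted p = 0.446) and MNT in H1048 (-0.0253, adjusted p = 0.739) turned, the count of members that differ between RUVBL1 and RUVBL2 knockouts went from 1 to 2, and control MYC became 148 TPM in T84, 6.99 in A-375, 43.1 in H1048 and 73.2 in RH30. Why these moved was not tested. Without the 2 CFPAC-1 comparisons, CDK1 and RPA3 knockouts gave 11 calls. That alternative, and control levels without SUIT-2 sgRosa replicate 1, were chosen after seeing the data.

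Replicate numbers did not pair the samples: of 36 group pairs with 3 or more shared numbers, 1 had same-numbered deviations correlated above 0.1 in every pair. With the replicate number as a block, MYC in CB-6644 was -1.06 in T84, -0.88 in A-375, -0.75 in H1048 and -1.0 in RH30, and of the member tests 6 calls were lost and 12 gained. The block could not be fitted for CB-6644 against DMSO in AsPC-1 and T3M-4. Depth is unknown, which limits MYCN and MYCL at low TPM.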
